A study of Homo sapiens with 9 samples.

Results

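LINC RNAs are long intergenic noncoding RNAs that carry a number in place of a functional name. Of the 60603 genes in the expression table, 1942 had a symbol made of LINC and digits, and 729 of these held at least 1 count. The 150 described here reached a mean of 0.5 CPM in at least 1 of the 3 groups of libraries. CPM is the expected count of a gene divided by the total of its library and multiplied by 1e6. The members were thus chosen by the values that are described below.

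The cells were TC32, an established Ewing sarcoma line whose driver is the fusion protein EWS::FLI1, of wild-type genotype per the labels and grown in serum-containing medium. They were sampled at 30 h in 3 groups of 3 libraries. The siEF group received a siRNA that spans the breakpoint of the EWS::FLI1 transcript, the siNEG libraries come from cells given a nonspecific siRNA, and the Media libraries carry only the treatment label Media. The titles call the libraries biological replicates of 1 line, all libraries carry the same batch label, and polyadenylated RNA was sequenced. In bulk RNA, fewer cells that express a transcript and less of it per cell cannot be told apart.

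EWS::FLI1 joins the low-complexity domain of EWSR1 to the DNA-binding domain of FLI1, an ETS factor. It binds GGAA repeats, where it activates genes, and single ETS sites, and many other genes rise when it is silenced. Long noncoding RNAs are transcribed by RNA polymerase II, usually spliced and polyadenylated, and often present at low copy. Some act in the nucleus on the genes beside them, some bind proteins or microRNAs in the cytoplasm, and for most LINC RNAs no function is established.

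Promoter windows from 250 bases before to 50 bases after the start were found in RefSeq (GRCh38.p14) for 113 of the 150 members. These were searched on both strands for GGAAGGAA, a pair of GGAA units, and for CCGGAAGT, the core of a single ETS site. GGAAGGAA lay in the windows of 6 members (5.31%) and of 4.50% of the 27305 genes in the same table. CCGGAAGT lay in the windows of 8 members (7.08%) and of 4.95% of all genes. The 4 windows shown were picked because they hold GGAAGGAA, the letters of the fusion's repeat element, and belong to members called higher in siEF than in siNEG, as 17.1% of all tested genes were. LINC02289 and LINC01152 became members only through their level in siEF, so nothing is read from the number of such windows. Positions are negative before the RefSeq start, the start base is the first positive position, and there is no position 0. Capitals mark the matches, on either strand.
LINC00189, chr21:29193244-29193543, plus strand: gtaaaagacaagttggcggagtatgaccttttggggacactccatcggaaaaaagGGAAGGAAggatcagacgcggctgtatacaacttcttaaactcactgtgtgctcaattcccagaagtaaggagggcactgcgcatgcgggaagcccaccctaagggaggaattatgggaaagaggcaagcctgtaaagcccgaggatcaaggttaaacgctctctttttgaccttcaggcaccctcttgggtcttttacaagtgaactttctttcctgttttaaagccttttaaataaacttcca
LINC00607, chr2:215843487-215843786, minus strand: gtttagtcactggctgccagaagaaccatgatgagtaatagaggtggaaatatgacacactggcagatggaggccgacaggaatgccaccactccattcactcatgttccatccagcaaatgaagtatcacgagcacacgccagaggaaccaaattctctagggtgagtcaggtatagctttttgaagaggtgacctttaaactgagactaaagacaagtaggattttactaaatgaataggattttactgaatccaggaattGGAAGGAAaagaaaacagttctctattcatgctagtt
LINC02289, chr14:77076142-77076441, minus strand: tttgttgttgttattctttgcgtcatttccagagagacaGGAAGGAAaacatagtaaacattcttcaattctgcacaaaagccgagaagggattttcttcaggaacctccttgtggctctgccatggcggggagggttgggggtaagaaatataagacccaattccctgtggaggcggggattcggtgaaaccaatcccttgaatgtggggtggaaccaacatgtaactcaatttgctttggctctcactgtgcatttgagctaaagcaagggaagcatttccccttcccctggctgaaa
LINC01152, chr17:72030404-72030703, plus strand: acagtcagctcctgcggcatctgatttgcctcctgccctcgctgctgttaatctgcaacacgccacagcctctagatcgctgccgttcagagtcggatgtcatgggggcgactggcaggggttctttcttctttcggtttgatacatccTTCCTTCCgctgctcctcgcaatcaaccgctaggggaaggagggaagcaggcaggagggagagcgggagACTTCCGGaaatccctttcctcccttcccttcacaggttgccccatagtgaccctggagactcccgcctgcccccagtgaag

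The first match lies at position -195 in LINC00189, 14 in LINC00607, -211 in LINC02289 and -101 in LINC01152. LINC01152 holds both motifs, which do not overlap there. The RefSeq start of LINC00607 lies 5418 bases from the GENCODE start, so its window is that of an internal start in GENCODE. Of the members lower in siEF, 9 had a window and 0 of these held either motif, and of the members not called, 2 of 75 held GGAAGGAA and 6 held CCGGAAGT. No member and 26 of all genes (0.0952%) held 3 GGAA units in a row. These are matches of letters in a window and say nothing of binding.

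The libraries held between 20727706 and 33134581 expected counts, so 0.5 CPM stood for 10.4 to 16.6 counts and values near that level are imprecise. FLI1 stood at 36.9 ± 1.71 CPM in siEF against 49.4 ± 0.306 CPM in siNEG (SD, n = 3). Its Log2FC was -0.35 (SE 0.06, edgeR adjusted P = 2.88e-05), short of the fold required for a call. The paper states that native FLI1 is not expressed in these cells. Its qPCR check of the silencing gave a 3-cycle change in expression, larger than the change in FLI1 counts here. Counts per gene cannot tell native FLI1 from the FLI1 part of the fusion transcript, so the source of these reads was not tested. NR0B1, a gene that EWS::FLI1 activates through a GGAA repeat, was at 17.3 CPM in siEF and 139.9 CPM in siNEG, and PHLDA1, which the fusion represses, at 116.9 and 3.26 CPM. All 6 Ewing sarcoma markers (FLI1, NR0B1, CD99, NKX2-2, CAV1 and STEAP1) were detected in every library. Of 6 markers of leukocytes, epithelium and endothelium, CD3E was at 0 in every library, and their summed level was 2.55 to 3.18 CPM in siEF, 3.56 to 4.41 CPM in siNEG and 4.51 to 5.64 CPM in Media. Of these 6 markers 2 were called higher in siEF than in siNEG, CDH1 at 0.887 CPM against 0 and EPCAM at 0.398 against 0.0408 CPM, and 1 lower, PECAM1 at 1.56 against 3.77 CPM (Log2FC -1.22). In Media, CDH1 was at 0.0768, EPCAM at 0.398 and PECAM1 at 4.41 CPM. EPCAM thus did not differ between siEF and Media (Log2FC 0.02) and was called lower in siNEG than in Media. PTPRC was at 0 CPM in siEF and 0.115 CPM in siNEG, and VWF at 0.0611 and 0.0101 CPM. Their part in the results below was not tested.

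Together the 150 members took 594.7 to 605.0 CPM in the siEF libraries, 511.7 to 525.8 CPM in siNEG and 497.9 to 527.6 CPM in Media. The median member was at 1.36 CPM in siEF, 0.927 CPM in siNEG and 0.933 CPM in Media, and 15 members exceeded 10 CPM in each group. Of the members, 33 reached 0.5 CPM only in siEF and 14 were below it in siEF. The selection thus bears on the summed and median levels, and nothing is read from their differences between groups. The 5 most abundant members in siNEG were LINC00707, LINC00641, LINC00667, LINC01578 and LINC00665, which took 27.5% of the summed level there and 23.9% in siEF. LINC00707 stood above the rest in every library. It was at 73.2, 79.9 and 75.4 CPM in siEF, 41.9, 44.97 and 42.4 CPM in siNEG and 50.9, 51.8 and 50.8 CPM in Media. All siEF libraries lay above all siNEG and Media libraries, and the Log2FC of siEF against siNEG was 0.88 (SE 0.05, edgeR adjusted P = 2.13e-10), short of the fold required for a call. Its counts were fractional in all 9 libraries, which means that reads were shared with other annotated transcripts. LINC00667 was at 24.4 ± 0.565 CPM in siEF and 27.1 ± 0.206 CPM in siNEG (SD, n = 3), and LINC00665 at 17.9 ± 1.04 and 21.4 ± 1.18 CPM.

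**Figure D1:**
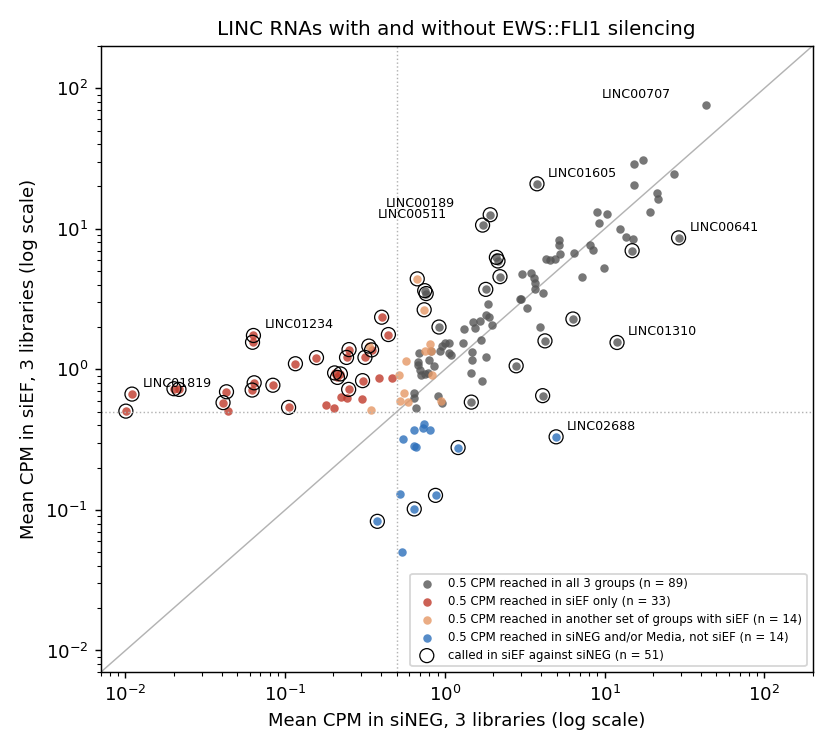
Mean CPM of the 150 LINC RNAs in siNEG (horizontal, log scale) and siEF (vertical, log scale), 3 libraries each. Colours give the groups in which a member reached 0.5 CPM, dotted lines mark that threshold, the grey line marks equal levels, and rings mark the 51 members called in siEF against siNEG; the 33 red members lie above the line by the way they were chosen, and of the ringed grey members 10 lie above it and 8 below.

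Per kilobase of annotated exons the order was different. This level could be set for the 142 members of which at least 80% of the listed transcripts were in GENCODE 44, and the 5 highest in siNEG were LINC00707 at 6.405 CPM per kb, LINC00641 at 5.08, LINC01963 at 4.72, LINC00355 at 4.41 and LINC00294 at 4.11. The median of the 142 members was 0.304 CPM per kb. LINC00355 was at 10.0 ± 0.607 CPM in siEF, 12.4 ± 0.394 CPM in siNEG and 16.1 CPM in Media, before division by length. LINC00294 was at 8.78 ± 0.329, 13.6 ± 1.25 and 16.3 CPM. The exons of LINC00294 overlap those of CSTF3. The strand setting of the counting is not given in the sources used here, so reads of overlapping genes may have been mixed. The expected counts of LINC00294 were whole in every library, and whether they hold reads of CSTF3 was not tested.

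More of the tested members were called higher than lower after EWS::FLI1 silencing, as was the case for all tested genes. A gene was called when its adjusted P was below 0.01 (edgeR's quasi-likelihood test over all 16093 genes tested) and its Log2FC was above 1 or below -1. Of the 147 members that could be tested, 38 (25.9%) were higher and 13 (8.84%) lower in siEF than in siNEG, where 17.1% of all tested genes were called higher and 11.7% lower. The rule itself bears on this count, since 33 members reached 0.5 CPM only in siEF and 25 of the 31 of these that were tested were among the higher ones. The 101 members at 0.5 CPM or more in both siEF and siNEG had 12 higher (11.9%), 8 lower (7.92%) and 81 not called. Both shares lay below those of all tested genes. Among these 101, 42 had all siEF libraries above all siNEG libraries and 23 all below, where 37.2% of all tested genes lay above and 39.5% below without overlap. Their median Log2FC was 0.37, that of all 147 members 0.48 and that of all genes tested 0.05. Of 1347 tested lncRNA genes outside the members, 17.3% were called higher and 9.21% lower, with a median Log2FC of 0.15.

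With each library left out in turn, 33 to 39 members were called higher and 12 to 15 lower. In the full fit 17.1% of all tested genes were called higher and 11.7% lower, and the shares with a library left out are not given here. The ranges include members chosen through siEF alone, which made up 25 of the 38 higher calls in the full fit, so they partly restate the selection.

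Among members expressed in both siRNA groups, the largest rises that met the naming rule were those of LINC00189, LINC00877, LINC00511, LINC01605, LINC00888, LINC01133, LINC00607 and LINC02035. LINC00189 (chr21:29193480-29288205) was at 11.3, 12.6 and 13.9 CPM in siEF, 2.21, 1.47 and 2.08 CPM in siNEG and 1.95, 1.88 and 2.23 CPM in Media. The siEF libraries stood apart from the 6 others, which overlapped. The Log2FC of siEF against siNEG was 2.78 (SE 0.16, edgeR adjusted P = 8.88e-11). It shares exon bases with BACH1, a haem-regulated transcription repressor that also rose, and the reads of both cannot be separated with certainty.

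LINC00511 (chr17:72290091-72640472), a transcript studied in breast and lung cancers, was at 10.9, 10.8 and 10.2 CPM in siEF, 1.18, 1.51 and 2.47 CPM in siNEG and 0.681, 0.862 and 0.801 CPM in Media. The order was siEF above siNEG above Media in every library, and the Log2FC of siEF against siNEG was 2.69 (SE 0.20, edgeR adjusted P = 2.43e-09). LINC00877 (chr3:71943592-72279503) had the same order, with 4.04, 4.49 and 4.69 CPM in siEF, 0.830, 0.754 and 0.428 CPM in siNEG and 0.325, 0.160 and 0.348 CPM in Media. Its Log2FC against siNEG was 2.76 (SE 0.28, edgeR adjusted P = 1.52e-07), and it lies 92322 bp from RYBP, a component of Polycomb repressive complexes.

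LINC01605 (chr8:37421341-37554183) was the most abundant of the risen members. Its levels were 22.3, 19.8 and 20.6 CPM in siEF, 3.64, 3.68 and 3.99 CPM in siNEG and 4.74, 4.98 and 5.05 CPM in Media. The groups were narrow and did not overlap, with Media above siNEG, and the Log2FC of siEF against siNEG was 2.53 (SE 0.10, edgeR adjusted P = 5.06e-13). It shares no exon bases with another gene and its counts were whole in every library.

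LINC01133, which binds the splicing factor SRSF6 in colorectal cancer cells, was more variable. It was at 3.69, 2.41 and 4.29 CPM in siEF, 0.766, 0.996 and 0.527 CPM in siNEG and 1.01, 0.447 and 1.05 CPM in Media. Every siEF library exceeded every other library, and the Log2FC against siNEG was 2.24 (SE 0.33, edgeR adjusted P = 1.34e-05). LINC00607 (chr2:215611563-215848954), a transcript of an endothelial super-enhancer, was at 2.84, 2.17 and 2.96 CPM in siEF, 0.734, 0.634 and 0.857 CPM in siNEG and 0.227, 0.160 and 0.348 CPM in Media. Its 3 groups did not overlap, and the Log2FC of siEF against siNEG was 1.91 (SE 0.29, edgeR adjusted P = 1.53e-05).

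LINC00888 rose from 0.747 ± 0.0625 to 3.63 ± 0.826 CPM and LINC02035 from 2.099 ± 0.555 to 6.27 ± 0.394 CPM (SD, n = 3). In GENCODE 44 the identifier of LINC00888 is attached to a transcribed pseudogene that shares exon bases with another entry of the same symbol. The other called members of this kind were LINC00476, LINC02323, LINC01139 and LINC01232, with Log2FC of 1.52, 1.17, 1.11 and 1.10. LINC01139, known as LINK-A, is one whose call depended on 1 library, since its Log2FC was 0.98 without siEF replicate 1. LINC00476, now named ERCC6L2-AS1, is an antisense transcript of ERCC6L2.

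The 8 members expressed in both siRNA groups that fell were LINC01310, LINC01727, LINC00641, LINC00843, LINC02197, LINC00887, LINC00997 and LINC01963. LINC01310 (chr22:48866770-48898386) was at 1.24, 2.12 and 1.296 CPM in siEF, 12.9, 11.95 and 10.97 CPM in siNEG and 14.5, 13.3 and 13.7 CPM in Media. The siEF libraries kept 13.2% of the siNEG level by the fitted fold change, with a Log2FC of -2.93 (SE 0.15, edgeR adjusted P = 3.45e-11), and did not overlap the others. It shares no exon bases with another gene.

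LINC00641 (chr14:21200079-21206900) was the most abundant member to fall, from second place in siNEG. It was at 8.97, 9.02 and 7.88 CPM in siEF, 27.0, 29.3 and 30.7 CPM in siNEG and 32.6, 35.9 and 36.1 CPM in Media. All siEF libraries lay far below the others, and the Log2FC of siEF against siNEG was -1.69 (SE 0.08, edgeR adjusted P = 6.37e-12). It lies 2236 bp from HNRNPC, a splicing regulator.

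LINC01727 (chr20:21557417-21666621), 39038 bp from PAX1, was at 0.532, 0.820 and 0.598 CPM in siEF, 4.50, 4.41 and 3.36 CPM in siNEG and 6.004, 7.06 and 7.11 CPM in Media. The 3 groups did not overlap. Its Log2FC was -2.62 (SE 0.22, edgeR adjusted P = 1.11e-08) for siEF against siNEG and -0.74 (edgeR adjusted P = 0.00386) for siNEG against Media, the second short of the fold required.

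Smaller falls were those of LINC02197 (Log2FC -1.33, SE 0.20), LINC00887 (-1.31, SE 0.23) and LINC01963 (-1.03, SE 0.10), each without overlap between siEF and siNEG. The Log2FC of LINC01963 was -0.999 without siEF replicate 1 and -0.99 without siNEG replicate 3, so its call rests on where the fold cut-off lies. LINC00997 was at 0.815, 0.241 and 0.698 CPM in siEF and 1.69, 1.15 and 1.55 CPM in siNEG. The siEF replicate 2 is the low library, and without it the Log2FC was -0.88 (edgeR adjusted P = 0.0259) in place of -1.20 (edgeR adjusted P = 0.00647). Its adjusted P also exceeded 0.01 without siEF replicate 3 (0.0123), siNEG replicate 1 (0.0229) or siNEG replicate 3 (0.0178).

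LINC00843 is annotated in GENCODE 44 as TIMM23B-AGAP6, a protein-coding read-through of genes with near-identical copies. Its levels were 3.98, 1.56 and 1.31 CPM in siEF, 7.28, 6.06 and 5.64 CPM in siNEG and 3.95, 3.60 and 7.11 CPM in Media. Replicate 1 of siEF was high, 2 Media libraries lay below it, and all its counts were fractional, so its Log2FC of -1.40 (SE 0.33) is uncertain.

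**Figure D2:**
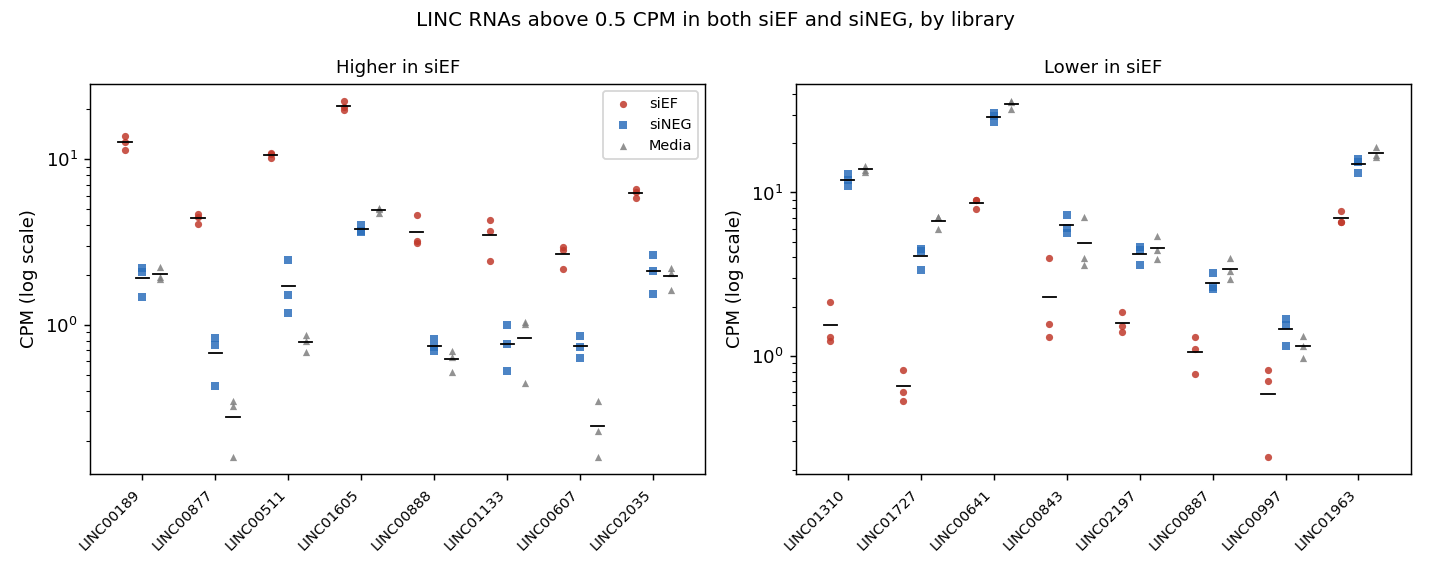
CPM in each library (log scale) of the 8 LINC RNAs with the largest rises (left) and the 8 that fell (right) among those at 0.5 CPM or more in both siEF and siNEG; black bars are means of 3 libraries. No siEF library overlaps a siNEG library, and in LINC00511, LINC00877 and LINC00607 the Media libraries also lie below the siNEG libraries.

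A further 33 members reached 0.5 CPM only in siEF. Their means there ran from 0.505 to 2.35 CPM, 10 of them at 1 CPM or more, and 12 had at most 9 counts over the 3 siNEG libraries together. Because these members were selected through the group in which they were high, their values are a description, and their calls restate the selection and support nothing. LINC00467, a transcript repressed by MYCN in neuroblastoma, was at 2.02, 2.61 and 2.43 CPM in siEF, 0.192, 0.453 and 0.560 CPM in siNEG and 0.195, 0.319 and 0.348 CPM in Media. LINC02289 was at 1.88, 1.303 and 2.13 CPM in siEF and between 0.244 and 0.575 CPM in the 6 other libraries. LINC01234, studied in gastric and lung cancers, was at 1.63, 1.303 and 2.29 CPM in siEF and at most 0.160 CPM elsewhere. In these members no siEF library overlapped any other library.

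LINC01738 was at 1.49, 2.12 and 1.06 CPM in siEF and at most 0.0974 CPM elsewhere. LINC02104 was at 1.45, 1.40 and 1.296 CPM in siEF, and its siNEG and Media libraries lay between 0.132 and 0.453 CPM. LINC00958, also called BLACAT2 and described in bladder cancer, was at 0.709, 0.868 and 0.831 CPM in siEF and at most 0.130 CPM elsewhere. At the far end, LINC01819 had 55 counts over the siEF libraries, 1 over siNEG and 0 over Media, LINC02580 had 58, 2 and 1, LINC02351 had 39, 1 and 0, and LINC00672 had 60, 2 and 13. LINC00672 is now annotated as LASP1NB, a protein-coding gene beside LASP1.

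In the other direction, 14 members stayed below 0.5 CPM in siEF, with means from 0.0504 to 0.405 CPM. LINC02688 (chr11:1049880-1055749) had the largest gap. It was at 0.390, 0.338 and 0.266 CPM in siEF, 4.72, 4.41 and 5.77 CPM in siNEG and 6.17, 4.82 and 5.19 CPM in Media. The siEF level was 7.01% of the siNEG level, and the siNEG and Media libraries overlapped.

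LINC02233 was at 0.248, 0.386 and 0.199 CPM in siEF, 1.09, 1.39 and 1.15 CPM in siNEG and 2.14, 1.88 and 2.37 CPM in Media, 3 levels without overlap. LINC01563 was at 0.106, 0.241 and 0.0332 CPM in siEF and at 0.604 CPM or more in all other libraries. LINC01415 and LINC00426, also among the 5 most abundant in siNEG, were not called, with 0.370 ± 0.213 and 0.405 ± 0.110 CPM in siEF and 0.812 ± 0.0522 and 0.738 ± 0.0399 CPM in siNEG (SD, n = 3). The other lower members were LINC00299 and LINC00326, which had 8 or fewer counts over the siEF libraries.

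**Figure D3:**
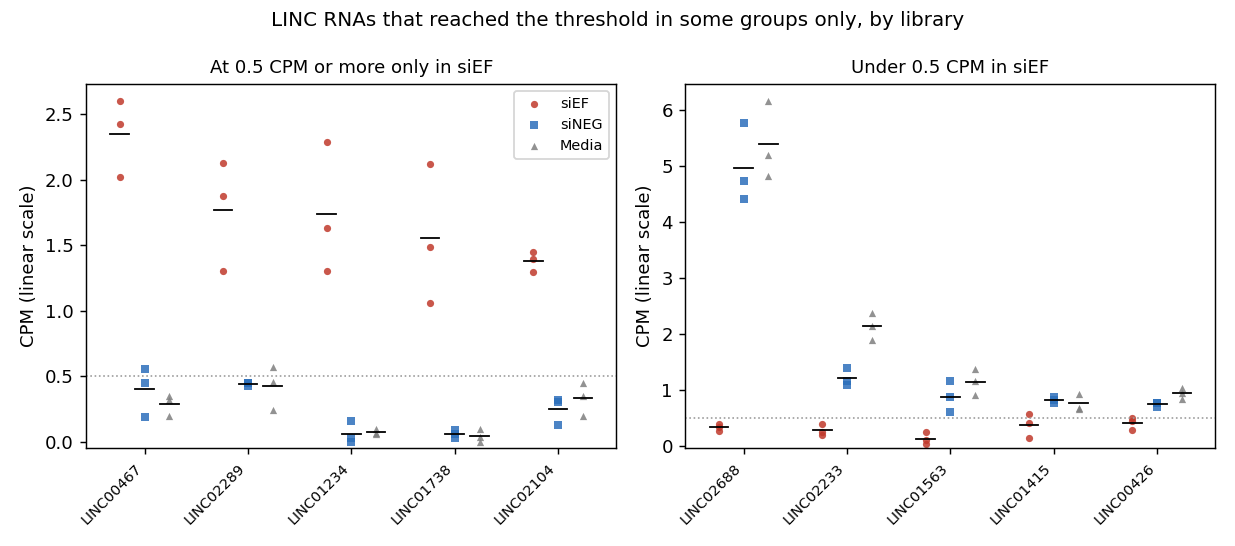
CPM in each library (linear scale) of the 5 most abundant LINC RNAs at 0.5 CPM or more only in siEF (left) and of the 5 most abundant in siNEG among those under 0.5 CPM in siEF (right); black bars are means of 3 libraries and the dotted line is the threshold. In siEF, LINC00467 lies at 2.35 CPM and LINC02688 at 0.331 CPM on average.

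Few LINC RNAs differed between the nonspecific siRNA and medium. Between siNEG and Media, 2 members were called higher in siNEG and 0 lower, where 0.162% of all tested genes were called higher and 0.267% lower. At an unadjusted P under 0.05 there were 27 members (18.4%), against 30.3% of all tested genes, and 7 (4.76%) had an adjusted P below 0.01 at any fold, against 9.79% of all. The 2 called members were LINC00607 (Log2FC 1.56, edgeR adjusted P = 0.00746) and LINC00511 (Log2FC 1.10, edgeR adjusted P = 0.00667), both also among those that rose in siEF. Each was higher in 3 of 3 siNEG libraries than in any Media library. These calls lay at the edge, since each was kept in only 2 of the 9 fits that left out a library, LINC00607 without siEF replicate 2 or Media replicate 3 and LINC00511 without siEF replicate 2 or siNEG replicate 1. The edgeR adjusted P reached 0.0398 for LINC00607 and 0.0339 for LINC00511 in the other fits. Without siNEG replicate 3, the highest siNEG library for both, the Log2FC was 1.45 for LINC00607 and 0.76 for LINC00511. DESeq2 called LINC00511 and gave LINC00607 no adjusted P. Of the 31 tested members that reached 0.5 CPM only in siEF, 0 were called between siNEG and Media. By the rule these members were below 0.5 CPM in both of those groups, so nothing is read from this count.

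Against Media, 52 members were higher and 15 lower in siEF, where 17.4% of all tested genes were called higher and 12.5% lower. Of the 52, 29 had reached 0.5 CPM only in siEF, so the rule bears on this count too, and the comparison shares the siEF libraries with that against siNEG. In LINC00877 the Log2FC of siEF was 2.76 against siNEG and 4.01 against Media, and in LINC00607 it was 1.91 and 3.46.

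Many LINC RNAs start beside a protein-coding gene, and some take part in its control. The nearest protein-coding gene was tested for 109 members, at a median distance of 17561 bp over all members, and 26 members overlap the body of such a gene. The neighbours are described without a test, beside 17.1% of all tested genes called higher and 11.7% called lower. Among members at 0.5 CPM or more in both siEF and siNEG, 2 of the 9 higher members with a tested neighbour had one called higher and 1 had one called lower. Of the 6 lower members of this kind, 2 had a neighbour called lower, and of the 58 not called, 6 had a neighbour called higher and 5 one called lower. The members that reached 0.5 CPM in only 1 of siEF and siNEG, or in neither, were chosen through the contrast itself. Of the 21 higher ones with a tested neighbour, 10 had a neighbour called higher, and of the 4 lower ones, 2 had a neighbour called lower. Most pairs called the same way thus contain a member whose own call the selection made likely.

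Several neighbours are transcription factors. Of the members named beside them here, LINC01152, LINC02202, LINC00958, LINC02104 and LINC02580 passed 0.5 CPM only in siEF. LINC01137 passed it in siEF but not in siNEG, so the rises of these members follow from the selection. LINC01152 lies 79710 bp from SOX9, the factor of cartilage and neural crest, and shares exon bases with ROCR, a noncoding RNA that supports SOX9 expression in cartilage formation. LINC01152 had 18, 18 and 19 counts in siEF and 3, 3 and 0 in siNEG, while SOX9 rose from 10.98 ± 1.13 to 155.9 ± 9.43 CPM (SD, n = 3, Log2FC 3.89). LINC02202 starts 567 bp from EBF1, a lineage factor of B cells and mesenchyme, and was at 0.834, 0.762 and 0.483 CPM in siEF and at most 0.0958 CPM in siNEG. EBF1 rose from 3.80 ± 0.644 to 16.05 ± 0.811 CPM (SD, n = 3, Log2FC 2.14).

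LINC00958 lies 16804 bp from TEAD1, the DNA-binding partner of YAP, with a Log2FC of 1.09, and LINC02104 lies 58098 bp from DAB2, an endocytic adaptor with a Log2FC of 2.36. LINC02580 lies 5156 bp from ZFP36L2, which promotes decay of AU-rich mRNAs and rose from 42.3 ± 1.93 to 310.7 ± 3.56 CPM (SD, n = 3). LINC01137, now ZC3H12A-DT, starts 148 bp from ZC3H12A, an RNase that degrades inflammatory mRNAs. LINC01137 was at 0.744, 1.69 and 1.96 CPM in siEF and 0.447, 0.423 and 0.132 CPM in siNEG, and ZC3H12A had a Log2FC of 1.94. BACH1 and RYBP, beside LINC00189 and LINC00877, had Log2FC of 1.61 and 1.41.

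On the side of the falls, LINC01310 lies 15858 bp from TAFA5, a secreted neuropeptide-like protein that fell from 29.4 ± 2.26 to 10.3 ± 1.06 CPM (SD, n = 3, Log2FC -1.47). LINC02197 lies 8879 bp from BDP1, a subunit of the RNA polymerase III factor TFIIIB, with a Log2FC of -1.14. LINC00299 lies 190561 bp from ID2, an inhibitor of basic helix-loop-helix factors (Log2FC -1.92), and LINC00326 lies 133104 bp from EYA4, a transcription coactivator (Log2FC -2.11). LINC00299 reached 0.5 CPM only in siNEG and LINC00326 only in Media. Both were thus chosen through a group in which they were high, and their own calls support nothing. Among called members, the only one with a neighbour called the opposite way was LINC02323. It rose while ANKRD9, 35455 bp away, fell (Log2FC -1.47). Members not called are left aside here, and some of them also lay beside genes called in the other direction.

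LINC01578, now CHASERR, is known to restrain its neighbour CHD2, a chromatin remodeller. LINC01578 was at 17.4, 17.0 and 14.6 CPM in siEF and 21.01, 21.9 and 21.7 CPM in siNEG, below in all siEF libraries, with a Log2FC of -0.34 (SE 0.07, edgeR adjusted P = 0.000551). CHD2 had a Log2FC of 0.52 in the same fit. Neither reached the fold required for a call, and the transcripts share exon bases.

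**Figure D4:**
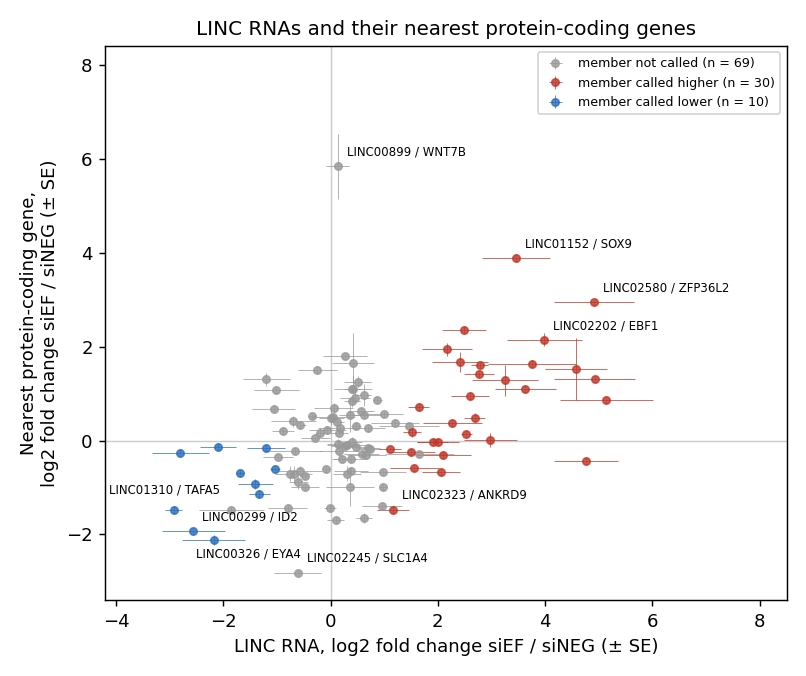
Log2 fold change of siEF against siNEG with its SE for 109 LINC RNAs (horizontal) and their nearest protein-coding genes (vertical). Red points are the 30 members called higher, blue points the 10 called lower and grey points the 69 not called; LINC01152 with SOX9 lies at the upper right, LINC01310 with TAFA5 at the lower left, and LINC00899 and LINC02245, both not called, lie beside the strongly changed genes WNT7B and SLC1A4.

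Members also lay beside each other, in 11 pairs within 200 kb. LINC01819 and LINC02580 lie 51868 bp apart on chromosome 2, and both became members through siEF alone. LINC00607 overlaps LINC01614, a member through siEF alone, which was at 1.45, 0.965 and 1.23 CPM in siEF and 0.255, 0.362 and 0.329 CPM in siNEG. LINC00887, which fell (Log2FC -1.31), lies 164269 bp from LINC00884, now named ATP13A3-DT. LINC00884 also passed 0.5 CPM only in siEF, and it was at 0.673, 0.724 and 1.10 CPM there and 0.319, 0.332 and 0.264 CPM in siNEG. The neighbours LINC00706 and LINC00707, 369 bp apart, were both not called.

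Of 20 LINC RNAs with a name in the field, 11 were members. Of the 9 that reached 0.5 CPM in both siEF and siNEG, LINC00511 and LINC01139 were called higher and 0 lower, where 17.1% of all tested genes were called higher and 11.7% lower. The other called members, LINC00467 and LINC00958, reached 0.5 CPM only in siEF, so their calls follow from the selection. LINC00963, studied in androgen-independent prostate cancer, was at 30.8, 27.6 and 28.1 CPM in siEF and 14.6, 16.6 and 14.9 CPM in siNEG, all higher, with a Log2FC of 0.97 (SE 0.07, edgeR adjusted P = 4.19e-09). It passed the fold cut-off without siNEG replicate 2 (Log2FC 1.02). LINC01116, near the HOXD cluster, was at 0.921, 0.868 and 0.698 CPM in siEF and 1.56, 1.87 and 1.68 CPM in siNEG, a Log2FC of -0.98 (SE 0.27, edgeR adjusted P = 0.00408) that passed in 4 of the 9 fits without 1 library.

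LINC00632, the host transcript of the circular RNA CDR1as, was at 5.81, 3.91 and 6.08 CPM in siEF and 11.2, 10.5 and 8.11 CPM in siNEG, with a Log2FC of -0.83 (SE 0.15, edgeR adjusted P = 0.000134). LINC00662 was at 13.2 ± 1.38 CPM in siEF and 19.3 ± 0.665 CPM in siNEG, and LINC00342 at 4.52 ± 0.909 and 7.23 ± 0.492 CPM (SD, n = 3). Of those outside the members, LINC00472, LINC00261 and LINC00221 had 0 counts in every library.

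The same comparison was made for 48 lncRNAs with established names outside the LINC numbering, of which 41 were tested. There were 7 called higher (17.1%) and 6 called lower (14.6%), beside 17.1% and 11.7% of all tested genes, with a median Log2FC of 0.22. Higher were the imprinted transcripts H19 (0.168 CPM in siNEG and 39.8 CPM in siEF) and MEG3 (0.580 and 14.4 CPM), and MIR22HG, PURPL, MIAT, EPB41L4A-AS1 and MIR100HG with Log2FC between 1.04 and 1.51. Lower were DLEU2 (Log2FC -2.09), EWSAT1, a lncRNA that EWS::FLI1 induces (-1.95), MIR17HG, the host of an oncogenic microRNA cluster (-1.93), the snoRNA hosts SNHG12 (-1.44) and SNHG15 (-1.32), and NORAD, which binds PUMILIO proteins (-1.11).

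In annotation, 141 of the members are lncRNA genes in GENCODE 44, 7 are transcribed pseudogenes and 2 are now protein-coding, and 13 carry another symbol. Their exons cover a median of 4722 bp, from 650 to 33198 bp where at least 80% of the transcripts were found. Exon bases are shared with another gene in 68 members, 51 of them on the opposite strand and 18 with a protein-coding gene. Among the 51 without shared bases that reached 0.5 CPM in both siEF and siNEG, 4 were called higher and 3 lower, beside 17.1% and 11.7% of all tested genes. Expected counts were whole in every library (within 1e-06) for 117 members and fractional in at least 5 libraries for 28. The median GC content of the promoter windows was 57.7% in members and 58.3% in all genes.

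At the threshold, the last members inside were LINC00326 (0.519 CPM in Media), LINC00689 (0.508 CPM in siEF) and LINC02351 (0.505 CPM in siEF). The first outside were LINC02482 (0.483 CPM), LINC01772 (0.481 CPM) and LINC00852 (0.471 CPM), each at its highest in siEF.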

How the data were processed

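Per the paper's methods, the authors mapped reads to hg38 with STAR 2.7.1a and deposited expected counts per gene from RSEM 1.3.1, not scaled and not pooled. The submitters' notes also list FastQC, cutadapt 2.10 and DESeq2 1.32.0. The annotation release and strand setting are not given in the sources used here, and the labels name a small RNA kit although the molecule is polyA RNA. All 9 columns were used. Membership followed CPM of column totals. Expected counts were rounded, filtered with filterByExpr (16093 genes), scaled by TMM and fitted with edgeR 4.0.16 (R 4.3.3), 3 group means in 1 fit over 9 libraries, with Benjamini-Hochberg adjustment. SE is the size of the Log2FC divided by the square root of F. The procedure was tested on simulated data. Positions, gene types, exon lengths and neighbours came from GENCODE 44, from the transcripts the table lists, and promoters from RefSeq. The length limit of 80% of transcripts was set after seeing values.

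Named members were, by rule, the 8 largest rises and falls among called members at 0.5 CPM in both siRNA groups, without overlap and at 1 CPM in the higher group, the 5 highest siEF-only members, the 5 highest in siNEG of those under 0.5 CPM in siEF, members called between siNEG and Media, the 5 highest in siNEG by CPM and per kilobase, the 3 on each side of the threshold, a list of 20 LINC RNAs, and neighbours. Other called members, pairs and neighbours were named after their values were seen. Members and lists were chosen with earlier results of these data known. Alternatives included a DESeq2 1.42.0 fit, scaling by RLE or the upper quartile, other filters, cut-offs and membership rules, a fit to 6 libraries, a replicate block and leaving out each library.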

Additional observations from a re-analysis of the deposited data

How the results depend on the processing

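Counts of members called kept within 1.5 times of those reported under DESeq2, RLE or upper quartile scaling, no filter, adjusted P under 0.05 and the 6 libraries alone, except between siNEG and Media. With at least 10 counts in every library, which drops members that were near 0 in a group, 7 were lower and 11 higher in siEF than siNEG, and 8 lower and 20 higher than Media. A test against the fold cut-off (glmTreat) gave 6 lower and 25 higher against siNEG, 9 and 26 against Media, and 8 of the comparison lncRNAs. With no fold cut-off, 21 were lower than siNEG and 29 comparison lncRNAs were called. Membership at 1 CPM left 23 higher than siNEG and 32 higher than Media. Membership at 0.5 CPM in every group left 8 lower and 10 higher than siNEG, and 8 lower and 16 higher than Media. Members without shared exon bases gave 7 lower and 18 higher than siNEG, and 27 higher than Media. The median Log2FC was 0.57 with upper quartile scaling, 0.40 with at least 10 counts and 0.36 for members in every group. With 3 GGAA units, 0 windows matched. The filter and membership settings changed how many and which genes or members were tested. The cause of these and of the other changes was not tested.

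Between siNEG and Media, 1 member was called by DESeq2, with at least 10 counts or with membership in every group, 0 with the 6 libraries alone, glmTreat or no shared exons, 7 without the fold cut-off, and 0 to 2 with each library left out. For the 39 named members, 592 of 610 alternative values kept direction and call, 10 lost the call (LINC00997, LINC01963, LINC01139) and 8 gained it (LINC00963, LINC01116), and none turned direction.

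Replicate numbers did not pair the libraries, with correlations of same-numbered deviations between -0.0875 and 0.0482. As a replicate block they gave 13 members lower and 37 higher than siNEG, 14 lower and 51 higher than Media, 2 between siNEG and Media and 13 comparison lncRNAs, with a median Log2FC of 0.50.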

Other observations

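Of the 150 members, 3 were too low or uneven to be tested. LINC00689 had 22, 3 and 18 counts in siEF and 0, 0 and 4 in siNEG, and LINC00944 had 17, 6 and 31 counts in siEF and 10, 3 and 8 in siNEG. LINC01670 was at 0.109, 0.0420 and 0 CPM in siEF and 0.274, 0.434 and 0.913 CPM in siNEG, so 1 siNEG library carried most of its reads. LINC00944 overlaps LINC00943, which was at 0.580 ± 0.219 CPM in siEF and 0.0408 ± 0.0459 CPM in siNEG (SD, n = 3). LINC00943 passed the membership threshold in siEF but not in siNEG, so this gap follows from the selection.

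The members lie on 22 autosomes and X without Y, with 22 on chromosome 1, 14 on chromosome 2 and 11 on chromosome 17. Of the 8 members that start within 1 kb of a divergent protein-coding start, LINC01137 and LINC02202 were called, both higher together with their partners ZC3H12A and EBF1, and both passed 0.5 CPM in siEF but not in siNEG, so their own calls follow from the selection. The other 6 were LINC00235 beside CAPN15, LINC01534 beside ZNF567, LINC01560 beside ZNF41, LINC01521 beside PATZ1, LINC01547 beside SLX9 and LINC00205 beside POFUT2, and neither these members nor their partners were called. LINC00205 and POFUT2 each had a Log2FC of 0.87.

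Fractional values in at least 5 libraries were found in 24 of the 96 members not called, in 2 of the 38 higher and in 1 of the 13 lower members. The membership rule bears on these groups. Of the higher members 26, of the lower 5 and of those not called 15 did not reach 0.5 CPM in both siEF and siNEG. The fractional values were not split by this, so nothing is read from the difference. Precision is limited by depth, since a single count was worth between 0.0302 and 0.0482 CPM and members near 0.5 CPM rested on 10.4 to 16.6 counts a library.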
